A study of Mus musculus with 8 samples.

Results

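The mitochondrial respiratory chain subunits encoded in the nucleus were examined as 1 module. Its members are all genes on the array whose symbol begins with Nduf plus A, B, C, S or V and a number, with Sdh plus A to D, with Uqcr, or with Cox4 to Cox8 and a further letter or digit. RefSeq holds 68 such symbols, of which 66 had a probe on the array (85 probes), among 19730 genes with a symbol. Of the 66 members, 63 were tested, among 13790 genes tested in all. The tested members comprise 35 subunits of complex I, 4 of complex II, 8 of complex III and 16 of complex IV.

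Complexes I to IV sit in the inner mitochondrial membrane and pass electrons from NADH and succinate to oxygen. Complexes I, III and IV pump protons as they do so, and ATP synthase uses the resulting gradient. Most subunits come from nuclear genes that nearly all cells express, while several complex IV subunits also exist as isoforms restricted to heart and skeletal muscle, testis or lung. Neural progenitors are known for a strong use of glycolysis, and oxidative phosphorylation gains weight as they differentiate.

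RNA came from mouse neural stem and progenitor cells (NSPCs) grown as neurospheres, floating clusters, from embryonic stem cells. NFIA-overexpressing cells and control cells had been cultured together and were separated by flow sorting. NFIA is a transcription factor known for its part in the onset of astrocyte formation. The titles give 4 groups with 2 arrays each, namely control cells of primary neurospheres at passage 0 and day 6 (PN control), NFIA cells of the same stage (PN NFIA), control cells of secondary neurospheres at passage 1 and day 12 (SN control) and NFIA cells of that stage (SN NFIA). All groups share the mixed culture, the sort and the derivation from embryonic stem cells. The labels do not state the strain, the promoter that drives NFIA, the number of clones or whether replicates came from separate cultures, so the p-values measure only the spread between these samples.

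Levels are log2 signals relative to the 75th percentile of each array, so a level of 0 lies at that percentile, and differences are log2 differences ± SE from limma with Benjamini-Hochberg adjustment over all 13790 genes. On each array 44.4% to 55.5% of probes were well above background, and precision is limited by the small number of arrays. For 7 of 8 samples the attached scanner file held an array other than the one that the sample's column of the value table follows, and values here follow the value table. The source names conflict with the titles: all 4 control samples carry the name of the NFIA line, and PN NFIA 1 and SN NFIA 2 carry the WT name. By the value table, passage lies along the rows and NFIA along the columns of the 1 slide, and the effects of both cannot be told apart from that of position. The brighter Nfia probe read -1.30 and -0.30 in PN control, -0.24 and 0.93 in PN NFIA, 1.00 and 0.61 in SN control and 1.70 and 1.62 in SN NFIA, which put NFIA cells above control cells in each passage, with a difference over both passages of 1.00 ± 0.32 that did not pass the test (adjusted p = 0.171). All 10 neural stem and radial glia markers were well above background on 1 or more arrays of every group. So were all 8 pluripotent markers, all 8 mesenchyme markers and, by group, 9 or 10 of 10 neuron markers. The summed astrocyte marker level (linear, in units of the 75th percentile, lower array first) was 14.2 and 16.9 in PN control. It was 61.8 and 194 in PN NFIA, 51.1 and 212 in SN control and 473 and 825 in SN NFIA.

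Of the 66 members, 62 were well above background on all 8 arrays. The 4 exceptions are isoforms of complex IV. The testis isoforms Cox7b2 and Cox8c were well above background on 0 arrays. Cox6a2, the heart and skeletal muscle isoform of subunit 6a, was well above background on 4 arrays, 1 in each group, and none of these 3 genes was tested. Cox8b, the heart and skeletal muscle isoform of subunit 8, was well above background on 3 arrays and entered the test only through SN NFIA, so that it had to differ there.

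The promoters of both isoform pairs that carry the called differences, Cox6b1 with Cox6b2 and Cox8a with Cox8b, are shown because the ubiquitous and the restricted member of a pair can be set beside each other. The sequences are RefSeq windows of build GRCm38.p6, minus strand, from 250 bases before to 50 after the transcript start, printed 5′ to 3′ along the gene. Capitals mark matches to the motifs searched on both strands, which were the core of the NRF1 motif CGCATGCG, the GABPA motif CCGGAAG, the YY1 motif AAGATGGCG, the SP1 motif GGGCGG and the TATA box TATAAA.
Cox6b1 promoter, chr7:30626065-30626364 (ubiquitous, GABPA on the opposite strand): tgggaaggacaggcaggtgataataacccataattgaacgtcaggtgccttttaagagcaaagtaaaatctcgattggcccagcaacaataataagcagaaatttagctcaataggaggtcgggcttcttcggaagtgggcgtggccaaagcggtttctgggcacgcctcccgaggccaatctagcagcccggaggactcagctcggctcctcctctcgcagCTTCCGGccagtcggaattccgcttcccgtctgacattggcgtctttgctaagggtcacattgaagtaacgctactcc
Cox6b2 promoter, chr7:4753045-4753344 (testis isoform, SP1): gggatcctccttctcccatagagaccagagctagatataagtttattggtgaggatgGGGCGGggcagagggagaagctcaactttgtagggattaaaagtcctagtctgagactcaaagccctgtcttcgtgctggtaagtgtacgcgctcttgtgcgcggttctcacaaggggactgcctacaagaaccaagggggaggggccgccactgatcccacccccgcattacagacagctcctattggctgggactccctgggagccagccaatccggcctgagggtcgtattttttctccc
Cox8a promoter, chr19:7217567-7217866 (ubiquitous, GABPA on the opposite strand): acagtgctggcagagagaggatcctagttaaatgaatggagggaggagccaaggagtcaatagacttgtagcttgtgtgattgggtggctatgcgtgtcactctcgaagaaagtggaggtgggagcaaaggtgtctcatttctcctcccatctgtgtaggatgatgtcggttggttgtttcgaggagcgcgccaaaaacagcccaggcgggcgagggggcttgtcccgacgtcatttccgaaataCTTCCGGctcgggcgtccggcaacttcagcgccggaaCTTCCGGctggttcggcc
Cox8b promoter, chr7:140900397-140900696 (heart and muscle isoform, TATA box): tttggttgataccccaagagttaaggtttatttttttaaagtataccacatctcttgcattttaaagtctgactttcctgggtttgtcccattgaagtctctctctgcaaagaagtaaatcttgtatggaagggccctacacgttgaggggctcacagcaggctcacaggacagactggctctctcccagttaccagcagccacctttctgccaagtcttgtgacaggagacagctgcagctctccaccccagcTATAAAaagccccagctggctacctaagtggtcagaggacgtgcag

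Windows were found for 53 of the 66 members (55 promoters). The GABPA motif was present in 11 of these (20.0%), against 8.86% of all 32851 RefSeq promoters. For YY1 the members' share was 5 of 55 (9.09%) against 1.40%, all 5 of them in complex I. For NRF1 it was 5 of 55 (9.09%) against 1.87%. SP1 letters stood in 23 (41.8%) against 35.7%, and the TATA box in 7 (12.7%) against 13.6%. The median member promoter held 19 CpG dinucleotides and 57.3% GC, against 7 and 52.7% over all promoters. Cox6b1, Cox6b2 and Cox8a held 17, 10 and 19 CpG dinucleotides, while Cox8b held 2. No matches overlap in the windows shown. GABPA and NRF1 are transcription factors known for driving respiratory chain genes, and a match of letters is a description of the window and not a binding site.

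The members stood high or low together on single arrays, and the 2 arrays of a group lay far apart in all groups but PN NFIA. The median over the 63 tested members of the level minus the gene's own mean over the 8 arrays was 0.35 and -0.15 in PN control, -0.15 and -0.26 in PN NFIA, -0.25 and 0.16 in SN control and -0.24 and 0.60 in SN NFIA. SN NFIA 2 was the highest of the 8 arrays for 45 members and PN control 1 for 15, while SN NFIA 1 was the lowest for 22 and SN control 1 for 21. Over all genes tested the same median lay between -0.06 and 0.10. Within SN NFIA, replicate 2 exceeded replicate 1 for 58 of 63 members by a median of 0.89. Within SN control it did so for 60 by a median of 0.49, whereas within PN control it did so for 5 with a median of -0.49, and within PN NFIA for 19 with a median of -0.08. With quantile normalization the median was smaller in SN NFIA 2 (0.35) and PN control 1 (0.11), turned in SN NFIA 1 (0.06, with 38 members above their own mean against 13 before) and was 0.19 in SN control 2.

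**Figure D1:**
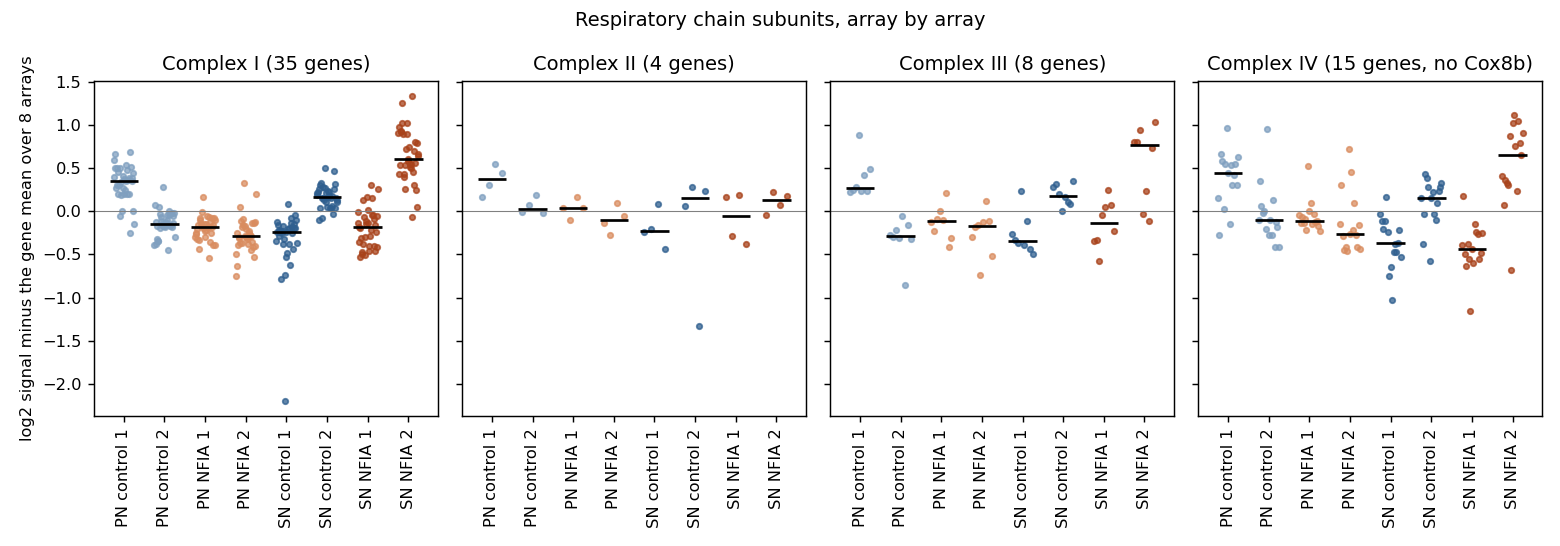
Each point is 1 tested subunit gene on 1 array, as log2 signal minus the mean of that gene over the 8 arrays, in 1 panel per complex, and black lines are medians. The points of SN NFIA 2 and PN control 1 lie mostly above 0 in every panel, and Cox8b, with a range of 9.08, is left out of the complex IV panel.

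Over the 8 arrays the members had a median range of 1.15 log2 units, with 22 members under 1 and 4 over 2. In complex I the 7 tested core subunits, which carry the flavin and the iron-sulfur clusters, and the 28 accessory subunits both had medians above 0 in PN control 1, SN control 2 and SN NFIA 2 and below 0 on the other arrays. The core median was highest in PN control 1 (0.37, against 0.30 in SN NFIA 2), and the accessory median in SN NFIA 2 (0.67, against 0.34 in PN control 1). The core subunit Ndufv1, which holds the flavin that takes electrons from NADH, read 5.54 and 5.05 in PN control, 5.02 and 4.70 in PN NFIA, 5.05 and 5.25 in SN control and 5.04 and 5.14 in SN NFIA. Its highest array was PN control 1, and SN NFIA 2 did not stand out. Ndufs8, a core iron-sulfur subunit, read 3.24 and 2.72, then 2.47 and 2.33, then 2.66 and 3.17, then 2.62 and 3.65 in the same order, with SN NFIA 2 highest.

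Ndufb2, an accessory subunit of the membrane arm, had the widest range in complex I (3.21). It read 3.53 and 3.81 in PN control, 3.70 and 3.86 in PN NFIA, 1.33 and 4.03 in SN control and 3.42 and 4.55 in SN NFIA. Only SN control 1 was low, and the remaining 7 arrays lay between 3.42 and 4.55. Its difference between NFIA and control cells in secondary neurospheres was 1.30 ± 0.81 (adjusted p = 0.521), and without SN control 2 it was 2.65 (adjusted p = 0.0466), which leaves the low array as the only control of that stage, assumed to vary like the other groups. Ndufc2, an accessory subunit of the membrane arm, read 5.57 and 4.92 in PN control, 4.83 and 5.11 in PN NFIA, 4.75 and 5.41 in SN control and 5.68 and 6.70 in SN NFIA. Both SN NFIA arrays lay above all others, by 1.22 ± 0.43 over PN NFIA (adjusted p = 0.174) and by 1.11 ± 0.43 over SN control (adjusted p = 0.292), and neither passed the test.

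Ndufa10, an accessory subunit of complex I, was the lowest of the members in primary NFIA cells against control cells. It read 2.71 and 2.20 in PN control, 1.87 and 1.38 in PN NFIA, 2.0 and 2.32 in SN control and 1.99 and 2.55 in SN NFIA. The PN NFIA arrays were the lowest of all, and the primary difference was -0.83 ± 0.33 (adjusted p = 0.493). Ndufa11, an accessory subunit of the membrane arm, read 4.15 and 3.12 in PN control against 3.24 and 2.86 in PN NFIA. These groups overlap, and the difference was -0.58 ± 0.52 (adjusted p = 0.783). Ndufv3, an accessory flavoprotein subunit, has 2 probes, which gave 0.32 and 1.06 for secondary against primary neurospheres over both cell types. Ndufa5 (0.43 ± 0.38), Ndufs5 (0.37 ± 0.27) and Ndufa1 (0.39 ± 0.32), all accessory subunits, had differences above 0 between secondary and primary neurospheres over both cell types, with adjusted p of 0.520, 0.429 and 0.485 in that order.

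Complex II, succinate dehydrogenase, also belongs to the citric acid cycle, and its 4 subunits had the lowest median of the complexes in SN NFIA 2 (0.13). Sdha, the flavoprotein subunit that oxidizes succinate, had the smallest range of all tested members (0.42). It read 4.18 and 4.0 in PN control, 4.05 and 3.87 in PN NFIA, 3.76 and 4.08 in SN control and 4.18 and 3.97 in SN NFIA, with all groups overlapping. Sdhc, a membrane anchor, read 4.04 and 3.69 in PN control, 3.67 and 3.59 in PN NFIA, 3.58 and 2.17 in SN control and 3.68 and 3.57 in SN NFIA. Only SN control 2 was low, and the passage difference in control cells was -0.99 ± 0.45 (adjusted p = 0.395), or -1.69 (adjusted p = 0.0395) without SN control 1, which leaves the low array as the only control of that stage, assumed to vary like the other groups. A second Sdhc probe gave -0.30 for that difference. On it SN control 2 read 2.88, above PN NFIA 2 (2.69) and SN NFIA 1 (2.80), so only the brighter probe set SN control 2 apart. Sdhd, the other membrane anchor, differed by -0.20 ± 0.23 between secondary and primary neurospheres (adjusted p = 0.617).

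Complex III passes electrons from ubiquinol to cytochrome c, and its 8 subunits had the highest median in SN NFIA 2 (0.77). Uqcrc1, a core protein of the complex, read 3.28 and 2.07 in PN control, 2.39 and 1.66 in PN NFIA, 2.62 and 2.40 in SN control and 2.35 and 2.35 in SN NFIA. PN control 1 was the highest and PN NFIA 2 the lowest, and the primary difference was -0.65 ± 0.44 (adjusted p = 0.723). Uqcrfs1, the Rieske iron-sulfur protein, read 4.60 and 3.33 in PN control, 4.39 and 4.31 in PN NFIA, 4.07 and 4.29 in SN control and 4.43 and 4.07 in SN NFIA. Only PN control 2 stood apart, and no Uqcrfs1 difference exceeded 0.39 in size. Uqcrq, a small subunit, read 7.44 and 6.64, then 6.64 and 6.44, then 6.46 and 7.31, then 6.72 and 7.99 in the same order of groups, with SN NFIA 2 highest.

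Complex IV, cytochrome c oxidase, passes electrons to oxygen, and the 2 members that passed a test, Cox6b2 and Cox8b, belong to it. Cox8b entered the test through the group where it is high, and its pass is a description of that group. Cox6b2, the testis isoform of subunit 6b, read 2.95 and 2.94 in PN control, 2.52 and 2.70 in PN NFIA, 1.24 and 1.41 in SN control and 0.83 and 1.31 in SN NFIA. Every secondary array lay below every primary array. It fell by 1.58 ± 0.17 with passage over both cell types (adjusted p = 0.0103), by 1.62 ± 0.26 in control cells (adjusted p = 0.04999) and by 1.54 ± 0.26 in NFIA cells (adjusted p = 0.0428). Of the alternative settings, 15 of 17 kept the call over both cell types, 1 of 18 that in control cells and 7 of 17 that in NFIA cells. When the attached scanner files set the arrays, the difference over both cell types was 0.03. Cox6b2 has 1 probe, and in these bulk samples fewer cells with the RNA and less RNA per cell cannot be told apart.

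Its ubiquitous counterpart Cox6b1 read 4.09 and 3.34 in PN control, 3.33 and 3.08 in PN NFIA, 3.30 and 3.83 in SN control and 2.99 and 4.42 in SN NFIA. The groups overlap between passages, and the passage difference of Cox6b1 was 0.18 ± 0.36 (adjusted p = 0.793, interval -0.65 to 1.00). Of 8 cell cycle markers 6 fell with passage over both cell types, against 7.32% of all genes called, with summed levels, lower array first, of 159 and 199 in PN control, 101 and 141 in PN NFIA, 81.6 and 102 in SN control and 58.5 and 70.1 in SN NFIA, and their part in the Cox6b2 difference was not tested.

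Cox8b read -6.65 and -5.29 in PN control, -5.51 and -3.41 in PN NFIA, -5.45 and -4.26 in SN control and -0.11 and 2.43 in SN NFIA. Both SN NFIA arrays lay above all others, and of the remaining arrays only PN NFIA 2 was well above background. It rose by 5.62 ± 1.02 from primary to secondary neurospheres in NFIA cells (adjusted p = 0.0484), a call kept in 5 of 16 alternative settings. The filter on dim probes admitted Cox8b through SN NFIA, so that this comparison was favoured by the filter, and without the filter the adjusted p was 0.0863. Of the PN NFIA arrays 1 measured the gene, and the other gave only a bound. Against control cells in secondary neurospheres, where both control arrays were not well above background, Cox8b was at least 30.4-fold higher, and its fitted difference of 6.01 ± 1.02 did not pass the test (adjusted p = 0.0525). That comparison passed with normexp background correction (3.53, adjusted p = 0.0348), with quantile normalization (6.54, adjusted p = 0.0480) and with the replicate number as a block (adjusted p = 0.0241). Each of these settings kept the filter, which favoured the secondary comparison too. Without the filter that comparison did not pass. Without SN NFIA 2 the passage difference in NFIA cells was 4.35 (adjusted p = 0.174), and without SN NFIA 1 it was 6.89 (adjusted p = 0.0626). With groups from the source names, the secondary difference was -5.70 (adjusted p = 0.697). An at-least fold sets the mean of the higher group against the lower group with each array raised to its own lowest signal well above background.

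Over both passages the fitted Cox8b difference between NFIA and control cells was 3.76 ± 1.06 (adjusted p = 0.129). No at-least fold is given for it, since PN NFIA 1 was not well above background. The change of the NFIA effect with passage was 4.51 ± 1.45 (adjusted p = 0.563). Cox8a, the ubiquitous counterpart, read 8.14 and 7.65 in PN control, 7.66 and 7.67 in PN NFIA, 7.62 and 8.12 in SN control and 7.35 and 8.49 in SN NFIA. In all 4 comparisons within a passage or cell type its groups overlap, and the secondary NFIA difference of Cox8a was 0.05 ± 0.42 (adjusted p = 0.968, interval -0.93 to 1.04). Of 11 skeletal and heart muscle markers, 6 (Ckm, Des, Mb, Myod1, Myog and Tnnt2) were well above background on 0 arrays. The summed level of the list, lower array first, was 2.05 and 2.20 in PN control, 6.30 and 8.53 in PN NFIA, 2.47 and 3.72 in SN control and 26.8 and 28.0 in SN NFIA. Myh8, a myosin heavy chain, made up most of the SN NFIA sums, and the other 10 markers summed, replicate 1 first, to 2.33 and 1.58 there, against 3.39 and 1.77 in SN control. Myh8 read 4.61 and 4.72 in SN NFIA and -1.60 and -0.51 in SN control, and the part of these markers in the Cox8b difference was not tested.

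**Figure D2:**
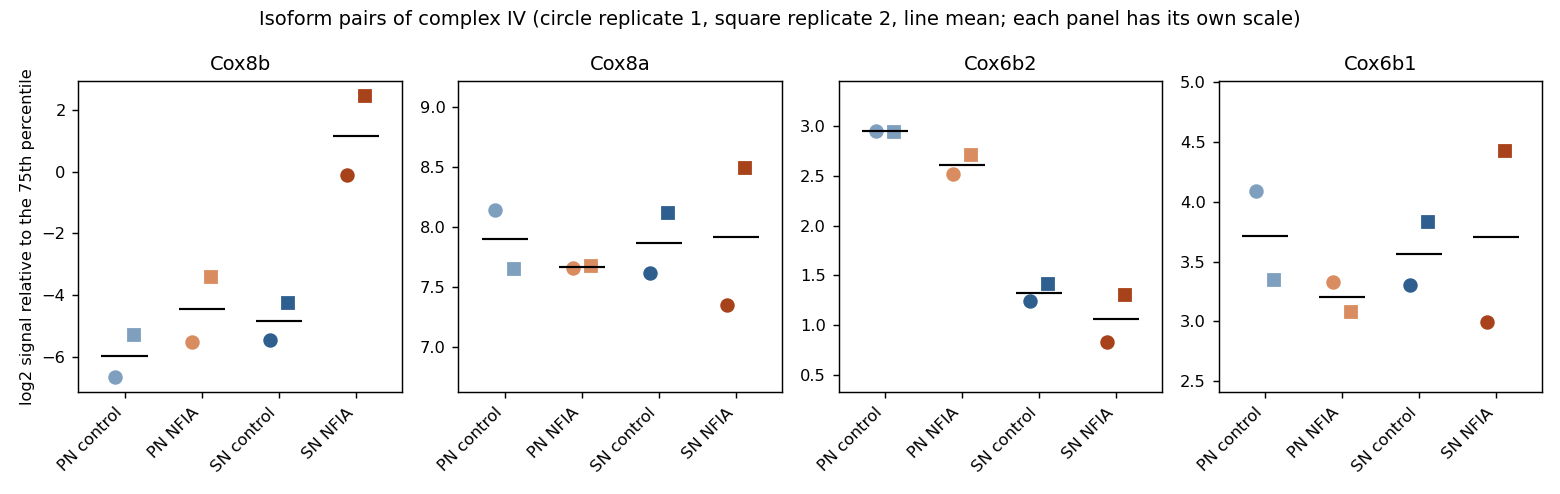
Log2 signal relative to the 75th percentile of the array for Cox8b, Cox8a, Cox6b2 and Cox6b1, with circles for replicate 1, squares for replicate 2, lines for group means and a scale of its own in each panel. Cox8b is high in both SN NFIA arrays (-0.11 and 2.43), and Cox6b2 lies lower on all 4 secondary arrays than on the primary ones.

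Cox7a1, the heart and skeletal muscle isoform of subunit 7a, read 1.59 and 1.64 in PN control, 1.83 and 2.20 in PN NFIA, 0.71 and 1.96 in SN control and 1.14 and 2.85 in SN NFIA. NFIA arrays exceeded control arrays in primary neurospheres (0.40 ± 0.61, adjusted p = 0.874), while in secondary neurospheres the groups overlap (0.67 ± 0.61, adjusted p = 0.675). Cox7a2, its ubiquitous counterpart, differed by 0.55 ± 0.41 in secondary neurospheres (adjusted p = 0.587). Cox4i2, the lung isoform of subunit 4, read -2.47 and -1.85, then -2.34 and -1.89, then -2.31 and -2.58, then -2.02 and -2.13 in the order of groups above, dim but well above background throughout. Cox4i1, the ubiquitous form, stayed between 7.08 and 7.88, and no difference of Cox4i1 exceeded 0.12 in size.

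Cox6a1, the ubiquitous form of subunit 6a, read 8.66 and 8.64 in PN control, 8.55 and 8.22 in PN NFIA, 8.81 and 9.02 in SN control and 8.26 and 8.94 in SN NFIA. Both NFIA groups had a lower mean than their controls, and the difference over both passages was -0.29 ± 0.20 (adjusted p = 0.501). Cox6a2 read -4.11 and -3.15, then -4.55 and -2.51, then -4.62 and -3.41, then -4.16 and -1.64 in the same order, with replicate 2 the higher in every group. Cox5b, a subunit that binds zinc, was the lowest member over both passages. It read 5.88 and 5.28 in PN control, 5.16 and 4.85 in PN NFIA, 5.19 and 5.72 in SN control and 4.66 and 5.62 in SN NFIA, and the difference between NFIA and control cells was -0.44 ± 0.27 (adjusted p = 0.459). Cox7b differed by 0.19 ± 0.36 over both passages (adjusted p = 0.835).

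In primary neurospheres the NFIA comparison asks what NFIA cells express differently from control cells at day 6. Here 0 of 63 members passed the test, against 0.312% of all genes, and 1 had an unadjusted p under 0.05. The differences were above 0 for 7 members and below for 56, with a median of -0.30, against -0.08 over all genes. The arrays of the groups did not overlap, with NFIA lower, for 28 members (44.4%), against 30.1% of all genes. Of these 28, 19 were in complex I, among them the core subunits Ndufs1, Ndufs3, Ndufs7, Ndufs8, Ndufv1 and Ndufv2. The complex medians were -0.35 (I), -0.23 (II), -0.19 (III) and -0.25 (IV). Without PN control 1, the array on which members were high, the median was -0.06, and with quantile normalization it was -0.16 with 10 members above 0. The direction turned with arrays from the attached scanner files (median 0.18, 50 members above 0) and with groups from the source names (0.15, 56 above 0).

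In secondary neurospheres 0 of 63 members passed the NFIA test, against 0.935% of all genes, and 2 had an unadjusted p under 0.05. The differences were above 0 for 54 members, with a median of 0.25 against -0.02 over all genes. The arrays of the groups did not overlap, with NFIA higher, for 5 members (Cox4i2, Cox8b, Ndufb4, Ndufc2 and Ndufv3), or 7.94%, against 19.2% of all genes. The complex medians were 0.29 (I), 0.08 (II), 0.25 (III) and 0.21 (IV). Without SN NFIA 2 the direction turned, with 19 members above 0 and a median of -0.16. Without SN control 1 the complex medians were 0.05 (I), -0.16 (II), -0.03 (III) and -0.02 (IV), so that the sign depended on single arrays. The direction turned too with other labels. Arrays from the attached scanner files gave 0 members above 0 (median -0.70), and groups from the source names gave 4 (median -0.71).

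Across both passages 0 of 63 members passed the NFIA test, against 1.97% of all genes, and 1 member, Cox8b, had an unadjusted p under 0.05. The median was -0.01 with 28 members above 0, against -0.05 over all genes. Leaving out 1 array in turn moved the count above 0 from 8 (without SN control 1) to 50 (without PN control 1, median 0.13), and the median was -0.24 without SN NFIA 2. With arrays from the attached scanner files 2 lay above 0 (median -0.29), and with groups from the source names 6 did (-0.25). The change of the NFIA effect with passage was above 0 for 61 members with a median of 0.58 (0.04 over all genes), and 0 members passed, against 0% of all genes, with 1 member (Cox8b) at an unadjusted p under 0.05. Uqcrfs1 (-0.31 ± 0.59) and Cox6a1 (-0.05 ± 0.42) were the 2 below 0. Without SN NFIA 2 the median of this difference was 0.18 with 40 above 0, and with arrays from the attached scanner files it was -0.87 with 2 above 0.

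The passage comparisons ask what changes between day 6 primary and day 12 secondary neurospheres. In control cells 1 of 63 members passed, Cox6b2 downward, against 0.863% of all genes. The differences were below 0 for 49 members with a median of -0.17, against -0.12 over all genes, and with quantile normalization 41 lay above 0 with a median of 0.06. Without PN control 1 the median was 0.08, without SN control 1 it was 0.09, and with arrays from the attached scanner files it was 0.64 with 61 above 0. In NFIA cells 2 members passed, Cox6b2 downward and Cox8b, favoured by the filter, upward, against 1.89% of all genes. The differences were above 0 for 57 members with a median of 0.35, against -0.05 over all genes, and all 35 complex I subunits were among them. Secondary arrays lay above primary ones without overlap for 20 members, 16 of them in complex I, or 31.7%, against 25.8% of all genes. Without SN NFIA 2, 31 lay above 0 with a median of -0.01, and with arrays from the attached scanner files 7 did with a median of -0.18.

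Over both cell types 1 of 63 members passed the passage test, Cox6b2 downward, against 7.32% of all genes, and 2 had an unadjusted p under 0.05. The differences were above 0 for 48 members with a median of 0.08, against -0.08 over all genes, and without SN NFIA 2 for 16 with a median of -0.10. The 95% interval of the difference lay within 2-fold in either direction for 47 members here, for 50 in the NFIA comparison over both passages, and for 14 to 21 in the comparisons within a passage or a cell type. Of the 63 members, only Cox6b2 had arrays without overlap between the passages, against 8.03% of all genes that were lower.

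**Figure D3:**
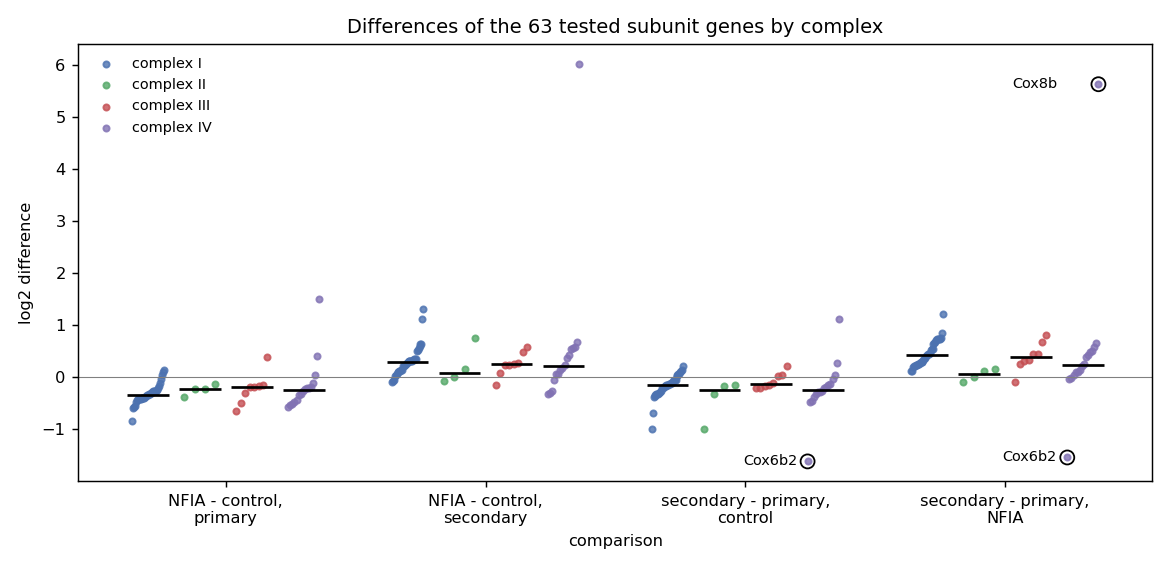
Log2 differences of the 63 tested subunit genes in 4 comparisons, coloured by complex, with black lines for the median of each complex and black rings around the members that passed the test (adjusted p under 0.05). Most points lie below 0 for NFIA in primary neurospheres and passage in control cells and above 0 for the other two, and Cox8b (5.62) and Cox6b2 (-1.62 and -1.54) are ringed.

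Lists of related genes were set beside the subunits. Of 17 tested ATP synthase genes, which use the proton gradient, 0 passed in any comparison and 0 had an unadjusted p under 0.05, and their array medians were 0.37 in PN control 1 and 0.53 in SN NFIA 2. Atp5b, the catalytic beta subunit, read 7.64 and 7.52 in PN control, 7.57 and 7.37 in PN NFIA, 7.26 and 7.60 in SN control and 7.12 and 7.15 in SN NFIA. Atp5b was low on both SN NFIA arrays, whereas the list median was -0.33 in SN NFIA 1 and 0.53 in SN NFIA 2. The NFIA difference of Atp5b was -0.20 ± 0.16 (adjusted p = 0.574). Among 13 electron carrier genes 0 passed, with at most 3 in a comparison at an unadjusted p under 0.05, and Pdss2, an enzyme of ubiquinone side chain synthesis, differed by -0.73 ± 0.19 with passage (adjusted p = 0.0596). Among 40 assembly factors and 18 citric acid cycle genes 0 passed in any comparison, with at most 1 of each list at an unadjusted p under 0.05, and Cox20, a complex IV assembly factor, differed by 0.58 ± 0.26 with passage (adjusted p = 0.211).

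Of 20 tested regulators of mitochondrial biogenesis, 2 fell with passage over both cell types and 0 rose, a share near the 7.32% of all genes called. Gabpb1, the partner subunit of GABPA, read 2.87 and 2.61 in PN control, 2.26 and 2.17 in PN NFIA, 2.07 and 1.73 in SN control and 1.67 and 1.37 in SN NFIA. Every secondary array lay below every primary one, and Gabpb1 fell by 0.77 ± 0.17 (adjusted p = 0.0396). Esrrb, an estrogen-related receptor that also marks pluripotent cells, fell by 1.72 ± 0.35 (adjusted p = 0.0331). Neither passed without either array of PN control, PN NFIA or SN NFIA, or with arrays from the attached scanner files. Ppargc1a, the coactivator PGC-1 alpha, differed by 0.07 with passage and by 0.37 with NFIA, and neither passed (adjusted p = 0.902 and 0.571).

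Of 22 glycolysis genes 6 fell with passage over both cell types and 0 rose, against 7.32% of all genes called, with a median of -0.68 against -0.08 over all genes. Hk2, a hexokinase, read 1.05 and 1.5 in PN control, 0.71 and 1.57 in PN NFIA, -0.67 and 0.10 in SN control and -0.68 and -0.74 in SN NFIA. All secondary arrays lay below the primary ones, and Hk2 fell by 1.70 ± 0.27 (adjusted p = 0.0200). Eno2, an enolase that neurons express, fell by 1.12 ± 0.19 (adjusted p = 0.0229). Over the alternative settings the count lay between 0 and 9, and it was 0 without PN control 2, PN NFIA 1, SN NFIA 1 or SN NFIA 2. The count was also 0 with arrays from the attached scanner files (median -0.20) and without both NFIA samples that carry a WT source name (median -0.78). The array order of the glycolysis genes differed from that of the subunits, with medians of -0.30 in SN NFIA 2 and 0.56 in PN control 2.

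The cytosolic ribosomal protein genes (81 tested, 0 passed in any comparison) had medians of 0.23 in PN control 1, -0.46 in SN NFIA 1 and 0.46 in SN NFIA 2, and the mitochondrial ribosomal protein genes (77 tested, 0 passed) of 0.45, -0.25 and 0.29. Like the subunits, both lists had medians above 0 in PN control 1, SN control 2 and SN NFIA 2 and below 0 in SN control 1 and SN NFIA 1. In PN NFIA the cytosolic list lay above 0 (0.08 and 0.09), where the subunits lay below. The 75th percentile of signal used for scaling was 383 and 375 in PN control and 425 and 332 in PN NFIA. It was 303 and 414 in SN control and 619 and 317 in SN NFIA. The part of RNA quality or depth in the order of arrays was not tested. At most 2 genes of either ribosome list had an unadjusted p under 0.05 in a comparison.

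**Figure D4:**
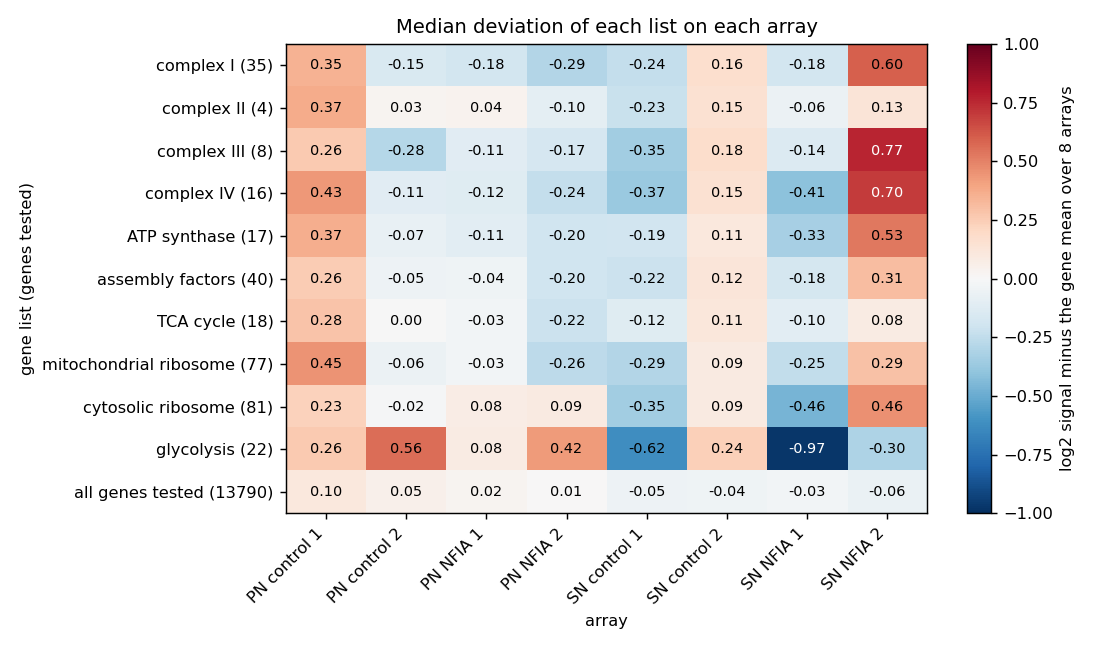
Median over each list of log2 signal minus the gene mean over the 8 arrays, with arrays in columns, lists in lines and the number of tested genes in brackets. Complexes I, III and IV, ATP synthase and both ribosome lists are high in PN control 1 and SN NFIA 2, whereas the 13790 tested genes lie between -0.06 and 0.10.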

How the data were processed

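RNA of sorted cells was measured on 8 one-colour Agilent arrays, 2 per group. Per the file headers, Feature Extraction 10.5.1.1 subtracted background from the spot intensity in the deposited scanner files, while the submitters' processing notes name version 10.7.3.1. The files also give deposited flags, with a score of 0 or 1 and of other kinds than intensity, for saturation, outliers and signal above background. The authors' value table holds log2 values that were centred on each probe's median (largest absolute probe median 0.000245), and its scaling to the 75th percentile was inferred from the values and is not given in the sources used here. The 62976 spots include 59305 that are no controls, and saturation was seen in 0. Each column of the value table correlated with 1 scanner file at 0.999858 or more and with any other at no more than 0.339, which set the array of each sample.

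Log2 processed signals were set relative to the array's 75th percentile. Spots of a probe were averaged, 126 probes were left out by outlier flags, and a probe was kept if 1 or more groups had it well above background on both arrays. Of 55681 probes, 26056 gained a symbol through their transcript accession and the RefSeq table. The brightest kept probe stood for each gene. Tests used limma 3.58.1 (R 4.3.3) at an adjusted p under 0.05, with 4 group means for comparisons within a passage or cell type and additive terms for those over both, which was tested on simulated data. Alternatives are in the closing section. Normexp (offset 50) used median signals, since the files hold no mean signal. Named members are those called, the 3 highest and 3 lowest of each comparison, the complex IV isoform pairs and the member with the widest range in each complex, and, of other lists, members with the smallest p. Ndufv1, Ndufs8, Uqcrq, Cox20 and Ppargc1a were added as examples after their values were seen, as was Sdha for its small range. The members and lists were chosen with earlier results of these data known. Ndufa4 was counted in complex IV and Cox7a2l, a supercomplex factor, with it.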

Additional observations from a re-analysis of the deposited data

How the results depend on the processing

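Results were recomputed under 19 alternative settings, of which the crossed block and leaving out both NFIA samples with a WT source name were chosen after seeing the data. Of 244 values for the counts of called members and the medians, 195 stayed close to the reported ones (counts within 1.5 times, medians within 0.378, the spread of array medians within groups) and 49 moved. A median can turn in sign within that spread, and did so in 12 of 107 such cases, or in 22 of all 122 medians. Leaving out 1 array in turn, the count of called members lay between 0 and 1 for NFIA in secondary neurospheres and for passage in control cells, and between 0 and 2 for passage in NFIA cells. The median difference then lay between -0.24 and 0.13 for NFIA over both passages, between -0.53 and -0.064 for NFIA in primary neurospheres, between -0.42 and 0.089 for passage in control cells, between -0.099 and 0.26 for passage over both cell types, between -0.16 and 0.70 for NFIA in secondary neurospheres, between -0.012 and 0.81 for passage in NFIA cells and between 0.18 and 0.98 for the difference of the NFIA effect.

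With arrays from the attached scanner files 0 members were called in any of the passage comparisons, and the medians were 0.18 (NFIA, primary), -0.70 (NFIA, secondary), 0.64 (passage, control), -0.18 (passage, NFIA) and -0.87 (difference of effects). Cox6b2 then turned in sign, at 0.033 for passage over both cell types and 0.25 in control cells. With groups from the source names the medians were 0.15 (primary), -0.71 (secondary) and -0.93 (difference of effects). Without both NFIA samples that carry a WT source name, 0 members were called for passage over both cell types, in control cells or in NFIA cells, the secondary median was -0.16 and the difference of effects 0.16.

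For NFIA in secondary neurospheres 1 member, Cox8b, favoured by the filter, was called with normexp, quantile normalization or the replicate block. For passage in control cells 0 were called with quantile normalization, no filter on dim probes, the mean of a gene's probes, the authors' value table, a fit of only the groups compared, the replicate block or the crossed block. For passage in NFIA cells the count was 1 with quantile normalization or the value table, and 0 without the filter or with only the groups compared. The cause of these moves was not tested, though dropping arrays or groups leaves fewer samples.

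The labels do not say that a replicate number marks a shared culture. Same-numbered arrays deviated together within a passage (correlation over genes 0.45 in primary and 0.48 in secondary neurospheres) but not across passages in control cells (-0.19). The replicate number was set as a block, within a passage for NFIA and across passages for passage. All genes called then rose from 129 to 648 for NFIA in secondary neurospheres. Of the members 1 was called there (Cox8b, favoured by the filter, adjusted p = 0.0241), and 0 for passage in control cells. Pairing replicates crosswise between passages gave 110 genes for passage in control cells, against 119.

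Dim signal limits Cox8b, Cox6a2, Cox7b2 and Cox8c, whose values below background have no order. With 2 arrays per group the median SE of a member was 0.40 within a passage or cell type, so differences within 2-fold were mostly not detectable there.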
